A study of Mus musculus with 13 samples.

Results

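The inhibitory receptors and phosphatases of B cells described here are 9 genes: the receptors Fcgr2b, Cd22 and Cd72, the adaptors Lax1 and Dok3, the phosphatases Inpp5d, Ptpn6 and Ptpn22, and the kinase Csk. The rule takes every probe set annotated to these symbols and uses no measured value, though the list of symbols was drawn up with earlier results of these data known. They are 9 of the 16553 genes that carried 1 gene symbol on both array types. On the Affymetrix 430 2.0 arrays they have 16 of 45101 probe sets, with 5 for Fcgr2b, 2 each for Ptpn6, Inpp5d and Cd22, and 1 each for the other members. On the Affymetrix Gene 1.0 ST arrays they have 9 of 35556, 1 per gene.

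All 13 arrays measured RNA of B3, a mouse pre-B cell line, transduced with mouse stem cell virus vectors that also carry GFP behind an internal ribosomal entry site (IRES). In the first experiment B3 cells received HA-Ikaros-IRES-GFP, which encodes wild type Ikaros with a haemagglutinin tag, or HA-159A Ikaros-IRES-GFP, which encodes the 159A mutant that does not bind DNA; RNA was taken 48 h after infection and read on 2 430 2.0 arrays per group. In the second, cells carried HA-Ikaros-ERt2-IRES-GFP, in which Ikaros is fused to the hormone-binding domain of the estrogen receptor, and were treated with 4-hydroxytamoxifen for 2 h or 6 h, or carried the control vector ERt2-IRES-GFP and were treated for 6 h; there were 3 Gene 1.0 ST arrays per group. Every group of the second experiment thus received 4-hydroxytamoxifen, and the 2 h group was compared with vector cells treated for 6 h, so that line and treatment time cannot be told apart there. Every group is the same single cell line, and the 48 h comparison differs from the others in array type, time, Ikaros construct and control. The labels call the arrays biological replicates without saying that they came from separate cultures, so what a p-value weighs here is the spread among these arrays, which may be technical. In such bulk RNA, fewer cells of a type and less RNA per cell cannot be told apart.

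B cells restrain signals from the antigen receptor through receptors whose cytoplasmic tails carry immunoreceptor tyrosine-based inhibitory motifs (ITIMs). When Src family kinases phosphorylate these motifs, they recruit phosphatases: the protein tyrosine phosphatase SHP-1, encoded by Ptpn6, or the inositol phosphatase SHIP, encoded by Inpp5d, which removes a phosphate from the lipid messenger made by phosphoinositide 3-kinase. Csk and the phosphatase encoded by Ptpn22 act on the Src family kinases themselves. Ikzf1 encodes Ikaros, a DNA-binding factor of lymphocytes that both represses and activates genes as pre-B cells leave the cell cycle and rearrange their light chain genes.

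Ikzf1, the gene carried by the vectors, was used to check the group labels. It read between 13.2 and 13.4 on the log2 scale in the 6 Ikaros-ERt2 arrays and 9.16, 9.25 and 9.39 in the vector arrays. The lowest of these is vector replicate 1, whose title names the vector while 1 of its label fields names the inducible Ikaros construct; it was kept as a vector array. At 48 h, where both groups carry an Ikaros construct, the Ikzf1 probe sets went opposite ways: 1421303_at read 12.00 and 12.08 in Ikaros and 11.82 and 11.61 in 159A arrays, and 1436312_at 4.11 and 4.77 against 12.83 and 12.73. On the 430 2.0 arrays all 9 B-lineage markers measured, among them Cd79a, Pax5, Ebf1 and Vpreb1, lay above the median gene, and on the Gene 1.0 ST arrays 8 of 9 did. Of the other cell types, 3 of 3 natural killer, 5 of 7 T cell and 7 or 8 of 8 myeloid markers lay within 1 log2 unit of the lowest 430 2.0 value. So did 2 of 3 erythroid and 2 or 3 of 4 plasma cell markers. No myeloid, natural killer or erythroid marker on the Gene 1.0 ST arrays was above the median gene. In each group there, 3 of 7 T cell and 1 of 4 plasma cell markers were above it. The mean over the B-lineage markers on these arrays was 9.864 to 9.961 in vector, 9.701 to 9.779 at 2 h and 9.583 to 9.696 at 6 h, without overlap. At 6 h Igll1 was at 12.1 against 13.2 in vector arrays, Vpreb1 at 8.66 against 9.82 and Blnk at 7.22 against 8.16. Of the 9 changes at 6 h against vector, 5 were positive and 4 negative. At 48 h some of these lists also differed between the groups. The mean over the B-lineage markers was 12.16 to 12.43 in Ikaros and 12.44 to 12.65 in 159A arrays. Igll1 was at 8.97 against 14.9 and Vpreb1 at 10.8 against 14.7, while the other 7 of the 9 were higher in Ikaros arrays. The mean over the T cell markers was 3.12 to 3.35 in Ikaros and 3.56 to 3.60 in 159A arrays, with Cd28 at 7.66 against 10.4 while Cd3e, Cd3d, Cd3g and Thy1 were near the floor in both groups. The mean over the myeloid markers was 2.35 to 2.36 against 2.52 to 2.61, with Lyz2 at 2.65 against 4.39 and the others near the floor. The mean level of the 4 plasma cell markers was 5.96 to 6.01 in Ikaros and 4.65 to 4.80 in 159A arrays. There Jchain was at 8.20 against 2.62 and Xbp1, in the other direction, at 11.4 against 11.9. Prdm1 and Sdc1, which define that cell type, were near the floor in both groups. The part of these differences in the results was not tested.

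Probe sets were compared only within 1 array type, on the deposited log2 expression values, and members are not compared with each other by level. A gene was called changed when limma, a linear model fitted over all genes at once, gave a p-value below 0.05 after Benjamini-Hochberg adjustment over all genes tested. The 40% of genes with the lowest mean level were not tested. At 6 h against vector, 4 of the 8 members tested were called: Fcgr2b and Lax1 were higher, and Inpp5d and Ptpn6 lower. Of all genes 5.78% were called at 6 h, 2.58% higher and 3.2% lower. At 2 h, 2 of 8 were called, with Fcgr2b higher and Inpp5d lower, beside 1.86% of all genes (0.769% higher and 1.1% lower); Fcgr2b was tested there only because of its Ikaros-ERt2 values, and its 2 h call was lost without the filter. At 48 h, 2 of 9 were called, Fcgr2b and Dok3, both higher, beside 14.8% of all genes in either direction and 6.38% higher. Members whose arrays did not overlap between groups numbered 6 of 8 at 2 h (18.6% of all genes), 6 of 8 at 6 h (21.3%) and 6 of 9 at 48 h (57.7%), where all 6 were higher in Ikaros cells (27.7% of all genes). The 2 h and 6 h comparisons share the same 3 vector arrays, so their results are not independent of each other. The plot of changes with their intervals sets the 3 comparisons side by side.

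**Figure D1:**
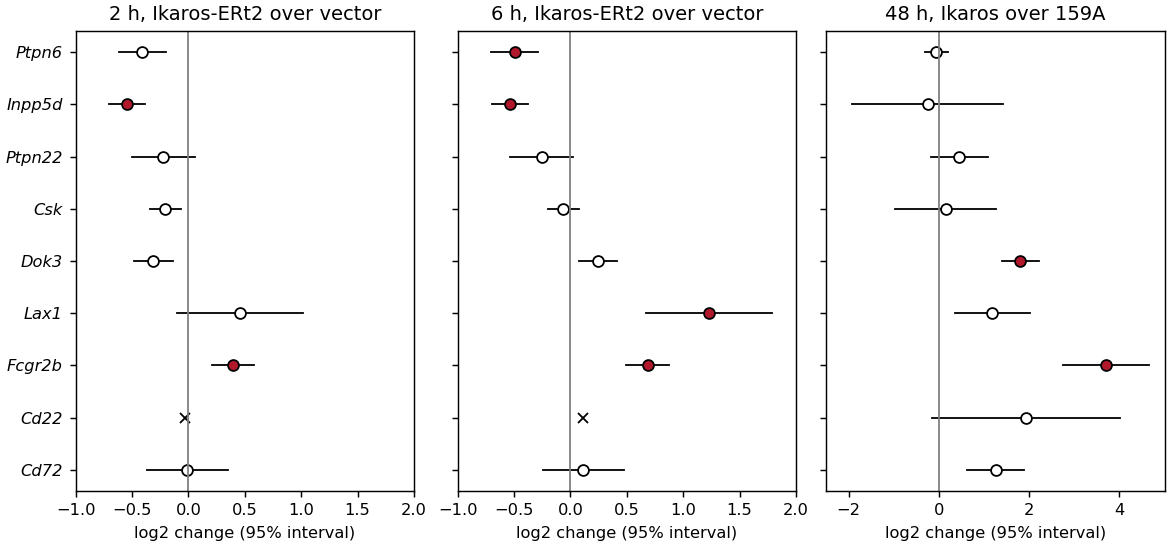
Log2 change of each member with its 95% interval from limma: Ikaros-ERt2 over vector at 2 h and at 6 h (n = 3 arrays a group, shared vector arrays) and Ikaros over 159A at 48 h (n = 2 a group, wider axis). Filled points passed the test, open points did not, and crosses mark Cd22, which was below the filter on Gene 1.0 ST arrays; Fcgr2b is filled in all 3 panels, at 2 h only with the filter on low genes.

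The promoters of the 5 members called in at least 1 comparison are printed so that the letters of the Ikaros core motif can be seen beside the changes. Each is the 250 bases before a transcription start in RefSeq (mouse build GRCm38.p6), read 5′ to 3′ on the gene's strand. Capitals mark GGGAA, the core that Ikaros zinc fingers are known to bind, or TTCCC, the same core on the opposite strand; the 2 words cannot overlap each other. The windows are chr1:170976072-170976321 (minus strand) for Fcgr2b, chr1:133690109-133690358 (minus strand) for the upstream of 2 Lax1 starts, chr13:55528539-55528788 (minus strand) for Dok3, chr1:87620062-87620311 (plus strand) for Inpp5d and chr6:124738710-124738959 (minus strand) for Ptpn6.
Fcgr2b: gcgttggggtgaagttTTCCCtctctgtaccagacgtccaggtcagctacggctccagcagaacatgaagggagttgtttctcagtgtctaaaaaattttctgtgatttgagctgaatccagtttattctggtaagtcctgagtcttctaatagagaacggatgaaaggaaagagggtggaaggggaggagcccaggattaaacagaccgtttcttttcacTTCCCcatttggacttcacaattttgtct
Lax1: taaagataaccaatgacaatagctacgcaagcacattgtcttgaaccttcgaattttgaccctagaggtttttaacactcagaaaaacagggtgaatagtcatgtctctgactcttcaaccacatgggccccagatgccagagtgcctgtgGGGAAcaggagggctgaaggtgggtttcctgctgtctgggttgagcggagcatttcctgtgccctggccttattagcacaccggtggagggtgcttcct
Dok3: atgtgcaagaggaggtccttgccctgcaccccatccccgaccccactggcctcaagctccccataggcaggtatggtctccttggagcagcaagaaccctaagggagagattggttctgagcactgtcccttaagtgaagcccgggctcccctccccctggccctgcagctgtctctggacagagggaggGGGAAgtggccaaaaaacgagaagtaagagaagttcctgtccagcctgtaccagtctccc
Inpp5d: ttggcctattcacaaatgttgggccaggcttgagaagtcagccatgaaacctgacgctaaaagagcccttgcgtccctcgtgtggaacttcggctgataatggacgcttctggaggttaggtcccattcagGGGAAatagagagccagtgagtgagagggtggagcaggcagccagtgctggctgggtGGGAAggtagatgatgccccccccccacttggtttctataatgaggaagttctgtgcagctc
Ptpn6: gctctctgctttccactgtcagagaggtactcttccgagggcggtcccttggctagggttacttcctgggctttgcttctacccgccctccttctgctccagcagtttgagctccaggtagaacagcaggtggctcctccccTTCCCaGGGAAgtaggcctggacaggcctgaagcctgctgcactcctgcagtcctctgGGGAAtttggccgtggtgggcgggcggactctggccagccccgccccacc

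Fcgr2b holds 2 matches, both TTCCC, the nearer 24 bases before the start. Inpp5d holds 2 and Ptpn6 3, while Dok3 and the Lax1 window hold 1 each, so that members that were higher and members that were lower both carry the core. Over all members, 10 of 12 windows held at least 1 match, and 56.2% of all 32851 RefSeq windows of this length did. The 2 Lax1 windows overlap and share their only match, so that site is counted in both. Cd72 had no match in its window, and Csk had none in 1 of its 2. A match is a run of letters, not a measured binding site, and no binding data were used here.

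Fcgr2b encodes the inhibitory receptor for the Fc part of IgG, which through its ITIM recruits SHIP. It was called at 6 h and at 48 h, while its call at 2 h depended on the filter on low genes. The 3 vector arrays read 5.02, 4.91 and 4.99 and the 2 h Ikaros-ERt2 arrays 5.42, 5.35 and 5.34. The 6 h arrays read 5.85, 5.53 and 5.60. All 6 Ikaros-ERt2 arrays were above all vector arrays. Fcgr2b rose by 0.39 at 2 h (SE 0.085, adjusted p = 0.0449) and by 0.68 at 6 h (1.61-fold, adjusted p = 0.00128). Its vector mean of 4.97 lay below the level of 5.10 that a gene's mean had to reach to be tested, so it was tested because of its Ikaros-ERt2 values. The 2 h call was lost without the filter (adjusted p = 0.0690) and when any 1 of the 6 arrays compared was left out (0.0819 to 0.190). The 6 h call held in all 17 alternatives in which the gene was tested.

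At 48 h the brightest Fcgr2b probe set, 1435476_a_at, read 8.94 and 9.06 in Ikaros arrays and 4.97 and 5.63 in 159A arrays. The groups lay far apart, with a log2 change of 3.70 (13.0-fold, 95% interval 2.75 to 4.66, adjusted p = 0.0274). Fitted one by one with all probe sets of the array, 4 of the 5 Fcgr2b probe sets rose. Of the 20975 probe sets tested in that fit, 9.16% were called in either direction and 3.78% were higher. Probe set 1435477_s_at read 10.53 and 10.57 against 3.77 and 3.22, a 133-fold difference (adjusted p = 0.0229). Probe set 1455332_x_at read 8.39 and 8.51 against 3.75 and 4.09 (23.1-fold, adjusted p = 0.0229). For 1451941_a_at the Ikaros arrays read 7.62 and 7.91, while the 159A arrays, at 2.57 and 3.29, had a mean within 1 log2 unit of the lowest value of the table. It is therefore given as at least 23.0-fold higher (adjusted p = 0.0324), with each 159A array entered at its own value or at that limit of 3.19, whichever was higher. The endings _s_at and _x_at mark probe sets whose probes may also match other transcripts. The fifth, 1447622_at, read 2.19 in all 4 arrays, the lowest value of the table, and was not tested. The measured sets thus gave the same direction with sizes that differed more than 10-fold.

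Cd22 encodes a lectin of B cells that binds sialic acids and through its ITIMs recruits SHP-1. On the Gene 1.0 ST arrays it was too low to be tested: vector arrays read 4.65, 4.65 and 4.62, the 2 h arrays 4.58, 4.61 and 4.65, and the 6 h arrays 4.68, 4.65 and 4.93. The groups overlapped, and 6 h replicate 3 was the highest array. After 48 h the probe set 1419768_at read 7.28 and 7.06 in Ikaros and 4.51 and 5.97 in 159A arrays. The groups did not overlap, yet the 159A arrays differed from each other by more than 1 log2 unit. The log2 change of 1.93 (3.81-fold, 95% interval -0.15 to 4.01) did not pass the test (adjusted p = 0.167). The other Cd22 probe set, 1419769_at, was at the floor in all 4 arrays.

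Cd72 encodes a lectin-like receptor that also recruits SHP-1 and has the semaphorin encoded by Sema4d as its ligand. Vector arrays read 10.77, 10.52 and 10.47, the 2 h arrays 10.88, 10.61 and 10.24 and the 6 h arrays 10.77, 10.90 and 10.43. The 3 groups overlapped throughout. The log2 change was -0.01 at 2 h (95% interval -0.37 to 0.35) and 0.11 at 6 h (-0.24 to 0.47), and neither passed the test. In the 48 h experiment the Ikaros arrays read 12.98 and 13.06 and the 159A arrays 11.97 and 11.55, with no overlap. That change, 1.26 (2.39-fold, 95% interval 0.63 to 1.88), missed the threshold with an adjusted p of 0.0538. It passed when the lowest 60% of genes were left out (0.0253), after quantile normalization (0.0358) and after median centring (0.0432). In the other 9 of 12 alternatives it did not pass.

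Lax1 encodes a transmembrane adaptor that limits signalling from lymphocyte antigen receptors. The vector arrays read 7.51, 7.54 and 6.91, the 2 h arrays 7.89, 7.78 and 7.66, and the 6 h arrays 8.88, 8.90 and 7.85. Both Ikaros-ERt2 groups lay above the vector group, but 6 h replicate 3 was about 1 log2 unit below the other 6 h arrays and within the range of the 2 h arrays. Lax1 rose by 1.23 at 6 h (2.34-fold, SE 0.25, adjusted p = 0.0168), which ranked 5 among 11963 genes from the highest change down. The 2 h change of 0.46 (95% interval -0.10 to 1.02) did not pass (adjusted p = 0.464). The 6 h call held in 13 of 18 alternatives; it was lost when only the groups compared were fitted (adjusted p = 0.0696) and without Ikaros-ERt2 6 h replicate 1 or 2 or vector replicate 1 or 3. At 48 h Lax1 read 3.95 and 3.90 in Ikaros arrays and 2.45 and 3.03, within 1 log2 unit of the floor, in 159A arrays. The groups did not overlap. The difference between the group means, given as at least 1.67-fold because of the floor, did not pass the test (95% interval of the log2 change 0.35 to 2.02, adjusted p = 0.0865).

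Dok3 encodes a docking adaptor that binds SHIP and Grb2 and damps calcium signalling downstream of the antigen receptor. The vector arrays read 8.79, 8.86 and 8.98, the 2 h arrays 8.50, 8.68 and 8.52, and the 6 h arrays 9.07, 9.14 and 9.15. All 2 h arrays were below and all 6 h arrays above the vector arrays. Neither difference from vector passed the test, at -0.31 for 2 h (adjusted p = 0.0770) and 0.25 for 6 h (adjusted p = 0.0986). Between the Ikaros-ERt2 groups themselves, Dok3 rose by 0.56 from 2 h to 6 h (1.47-fold, 95% interval 0.39 to 0.73, adjusted p = 0.0168). It was the 1 member called in that comparison, in which 0.903% of all genes were called and 0.376% were higher; at 6 h against 2 h, 3 of the 8 tested members, Dok3, Fcgr2b and Csk, had arrays that did not overlap, against 14.8% of all genes. The call was lost when only these 2 groups were fitted (adjusted p = 0.112) and without 2 h replicate 1 (0.0980) or 3 (0.0575). At 48 h the Ikaros arrays read 11.09 and 11.05 and the 159A arrays 9.40 and 9.13. The groups lay far apart, and Dok3 was higher by 1.80 (3.49-fold, 95% interval 1.39 to 2.22, adjusted p = 0.0244).

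**Figure D2:**
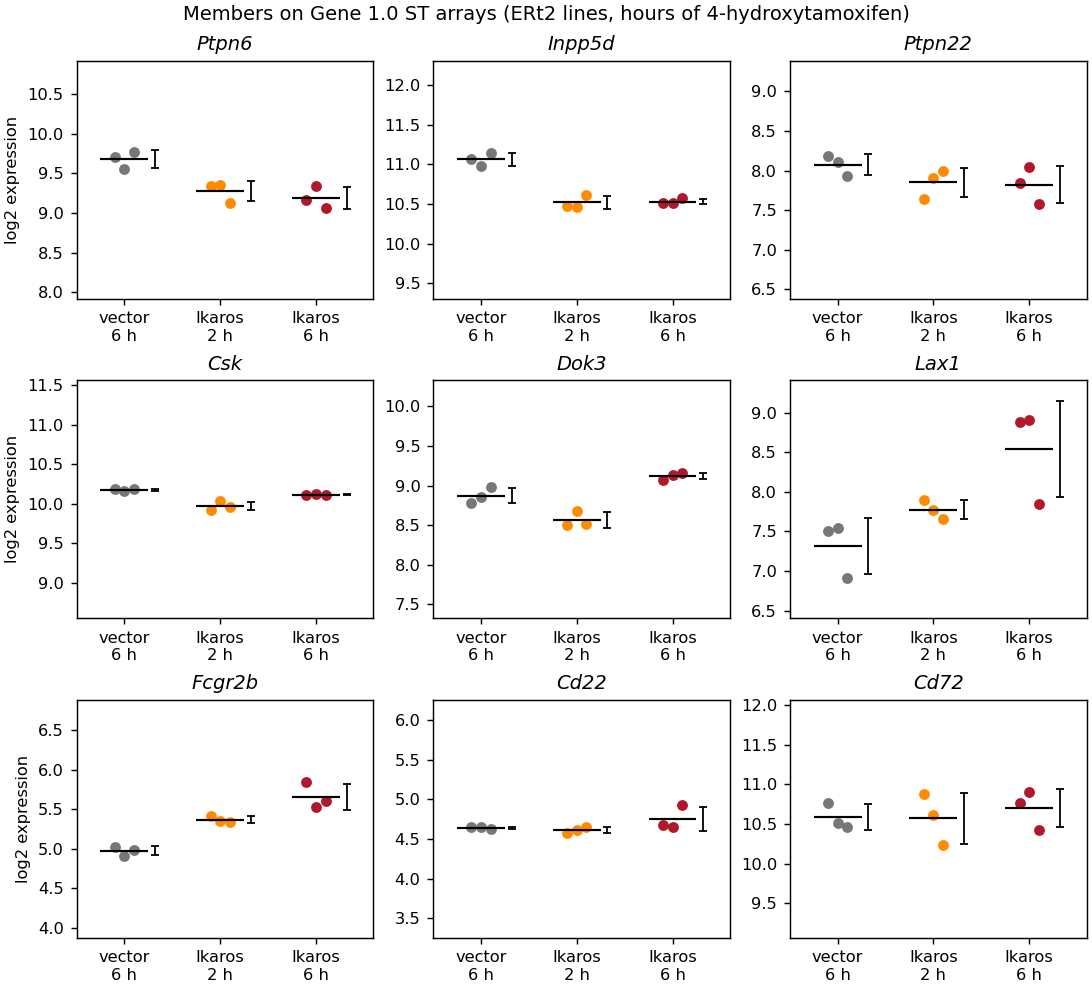
Log2 expression of the 9 members on the Gene 1.0 ST arrays: points are single arrays (3 a group), lines group means and bars 1 SD, and every panel spans the same number of log2 units. Inpp5d and Ptpn6 lie lower in both Ikaros-ERt2 groups than in vector cells, Fcgr2b and Lax1 higher, and Dok3 lies below vector at 2 h and above it at 6 h.

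Inpp5d encodes SHIP, which is shared by Fcgr2b and Dok3 as a partner. The vector arrays read 11.07, 10.98 and 11.14, the 2 h arrays 10.48, 10.46 and 10.62 and the 6 h arrays 10.51, 10.51 and 10.57. All 6 Ikaros-ERt2 arrays were below all vector arrays, and the 2 h and 6 h groups overlapped. Inpp5d fell by 0.54 at 2 h (SE 0.073, adjusted p = 0.00452) and by 0.53 at 6 h (1.45-fold, adjusted p = 0.00186). Both calls held in 18 of 18 alternatives. Between 6 h and 2 h the change was 0.01, and it did not pass the test. At 48 h the brightest probe set, 1418110_a_at, read 13.44 and 12.36 in Ikaros and 13.41 and 12.89 in 159A arrays. The groups overlapped, and the interval of the change of -0.25 ran from -1.93 to 1.42. For this probe set it includes both 0 and a fall of the size measured on the Gene 1.0 ST arrays. The dimmer probe set 1424195_a_at read 7.77 and 7.96 against 8.39 and 8.15, without overlap, and its change of -0.40 also did not pass (adjusted p = 0.217).

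Ptpn6 encodes SHP-1, the partner of Cd22 and Cd72. The vector arrays read 9.71, 9.56 and 9.77, the 2 h arrays 9.34, 9.35 and 9.13 and the 6 h arrays 9.16, 9.34 and 9.06. All Ikaros-ERt2 arrays were below all vector arrays. Ptpn6 fell by 0.49 at 6 h (1.41-fold, adjusted p = 0.0120). The 2 h change of -0.41 missed the threshold (95% interval -0.62 to -0.20, adjusted p = 0.0605). It passed when the lowest 60% of genes were left out (0.0422), after quantile normalization (0.0295) and without Ikaros-ERt2 6 h replicate 2 (0.0480). In the other 15 of 18 alternatives it did not pass (adjusted p up to 0.213). The 6 h call was lost without Ikaros-ERt2 6 h replicate 1, vector replicate 1 or vector replicate 3. For Ptpn6 at 48 h, probe set 1460188_at read 10.68 and 10.63 in Ikaros and 10.77 and 10.65 in 159A arrays, and the groups overlapped. The change was -0.06 with a 95% interval from -0.31 to 0.19. At 6 h, on the other array type, the interval ran from -0.70 to -0.28, so the intervals overlapped. The comparisons also differ in time, construct and control, and the difference between them was not tested. The second probe set, 1456694_x_at, read 7.90 and 7.71 against 7.81 and 7.88 and also overlapped.

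Csk encodes the kinase that phosphorylates the inhibitory tyrosine of Src family kinases. The vector arrays read 10.19, 10.16 and 10.18, the 2 h arrays 9.93, 10.03 and 9.95 and the 6 h arrays 10.12, 10.12 and 10.11. All Ikaros-ERt2 arrays lay below all vector arrays, and those of 2 h lay lowest. The changes were -0.21 at 2 h (95% interval -0.34 to -0.07, adjusted p = 0.141) and -0.06 at 6 h (-0.20 to 0.07, adjusted p = 0.709), and neither passed the test. Ikaros arrays at 48 h read 10.60 and 9.98 and the 159A arrays 10.38 and 9.90. They overlapped, with a change of 0.15 and a 95% interval from -0.98 to 1.27.

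Ptpn22 encodes a tyrosine phosphatase that binds Csk and removes the activating phosphate of Src family kinases. The vector arrays read 8.19, 8.11 and 7.93, the 2 h arrays 7.65, 7.91 and 8.00 and the 6 h arrays 7.84, 8.04 and 7.58. Both Ikaros-ERt2 groups overlapped with the vector group. The changes of -0.22 at 2 h (95% interval -0.50 to 0.06) and -0.26 at 6 h (-0.54 to 0.03) did not pass the test. At 48 h the Ikaros arrays read 9.34 and 9.76 and the 159A arrays 9.15 and 9.05, without overlap. That change of 0.45 (95% interval -0.18 to 1.08) did not pass either (adjusted p = 0.245).

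**Figure D3:**
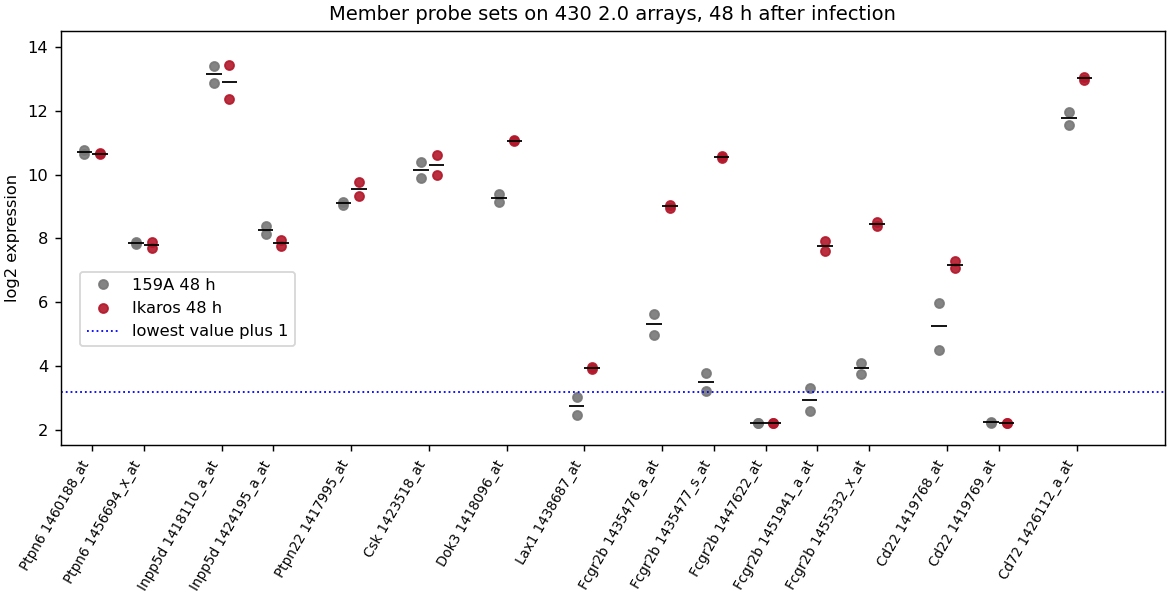
Log2 expression of all 16 member probe sets on the 430 2.0 arrays, 48 h after infection: points are single arrays (2 a group), short lines group means, and the dotted line lies 1 log2 unit above the lowest value of the table. The 4 measured Fcgr2b probe sets and Dok3 were called higher in Ikaros than in 159A arrays. Cd72, Lax1, Ptpn22 and the Cd22 probe set 1419768_at lie higher and the Inpp5d probe set 1424195_a_at lower. These did not overlap between the groups but did not pass the test. At the floor in all arrays lie 1 probe set each of Fcgr2b and Cd22.

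Set side by side, the median change of the tested members was -0.21 at 2 h, 0.03 at 6 h and 1.18 at 48 h, while the median over all genes tested was -0.01, 0.00 and 0.00. The 48 h median is the change of Lax1, whose 159A values lay near the floor. The bound of 1.67-fold given for that change allows for the floor but not for the spread among arrays. Its 95% interval ran from 0.35 to 2.02 and it did not pass the test, so the size of the median is uncertain. The members did not move as 1 group at 2 h or 6 h, where those called lay on both sides of 0. At 48 h, 7 of the 9 changes were positive. The calls of Fcgr2b and Dok3 at 48 h rest on 2 arrays a group: each was lost when any 1 of the 4 arrays was left out, and without the filter (adjusted p = 0.0895 for Fcgr2b and 0.0757 for Dok3).

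Other genes of the same machinery were counted from lists of related genes, to be read beside the shares of all genes called: 1.86% at 2 h, 5.78% at 6 h and 14.8% at 48 h. Where limma called 0, the count at an unadjusted p below 0.05 is also given. Of all 11963 genes tested, 1691 at 2 h and 2130 at 6 h lay below that level. Of 16 further inhibitory receptors, 8 were tested at 2 h and 6 h, and limma called 0 in either (0 and 1 at an unadjusted p below 0.05). At 48 h it called 1 of 6, Siglecg, another sialic acid-binding receptor of B cells, at 4.02 ± 0.13 in Ikaros and 3.27 ± 0.07 in 159A arrays (SD, n = 2; log2 change 0.75, adjusted p = 0.0487), close to the floor. Of 17 further phosphatases tested, limma called 0 at 2 h (2 at an unadjusted p below 0.05) and 1 at 6 h: Ubash3b, a phosphatase that restrains Syk family kinases, fell by 0.63 (adjusted p = 0.0189). At 48 h 1 of 16 was called, Ptpn1, which rose by 0.73 (adjusted p = 0.0459).

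Of 23 further inhibitory adaptors, ubiquitin ligases and Csk partners tested, 2 were lower and 0 higher at 2 h, and 2 lower and 1 higher at 6 h. The adaptor gene Dok2, a relative of Dok3, fell by 0.81 at 2 h (adjusted p = 0.00452) and by 0.83 at 6 h (adjusted p = 0.00140). Sla, which promotes loss of antigen receptors from the surface, fell by 0.60 at 2 h (adjusted p = 0.0118) and by 0.39 at 6 h (adjusted p = 0.0422). Rasa2, a GTPase-activating protein for Ras, rose by 0.44 at 6 h (adjusted p = 0.0421). At 48 h 3 of 22 were higher and 1 lower, where 6.38% of all genes were higher and 14.8% were called in either direction. The tetraspanin gene Cd53 rose by 3.54 (adjusted p = 0.0266) and the B cell scaffold gene Bank1 by 2.09 (adjusted p = 0.0347), while Rasa3 fell by 1.07 (adjusted p = 0.0284). The third that was higher, named after its value was seen, was the diacylglycerol kinase gene Dgka.

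The list of ligands and enzymes that make ligands of the member receptors has 4 genes, all tested. At 2 h limma called 0 of them (1 at an unadjusted p below 0.05). At 6 h St6gal1, which makes the sialic acid linkage that Cd22 binds, rose by 0.47 (adjusted p = 0.0158), and Cmah, which converts the sialic acid to the form preferred by mouse Cd22, also rose by 0.47 (adjusted p = 0.0289). Sema4d, the Cd72 ligand, fell by 0.39 (adjusted p = 0.0249). At 48 h St6gal1 was at 14.1 ± 0.18 in Ikaros and 13.0 ± 0.06 in 159A arrays (SD, n = 2) and rose by 1.10 (adjusted p = 0.0373).

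For the members called against vector at both 2 h and 6 h, the tested genes with the most similar profile over the 9 Gene 1.0 ST arrays were looked up by Pearson correlation. Inpp5d was matched most closely by Myc and Jak1, each with r = 0.988, and Fcgr2b by Myo1c (r = 0.991) and Tmem50b (r = 0.979). These values describe arrays that share the same 3 groups, and a gene that differs between the groups in the same order will correlate.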

How the data were processed

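The authors deposited log2 expression values for 13 Affymetrix arrays: 4 of type 430 2.0 and 9 of type Gene 1.0 ST. The submitters' processing notes name affy, GCRMA, RMA and limma, without versions and without saying which was used for which array type. Gene names came from GEO's annotation of the arrays, and only probe sets with exactly 1 symbol were used. For each gene the probe set with the highest mean was kept, the 40% of genes with the lowest mean were left out, and 10916 genes (430 2.0) and 11963 genes (Gene 1.0 ST) were tested, each array type alone, with limma 3.58.1 in R 4.3.3 (two-sided, Benjamini-Hochberg adjustment, threshold 0.05, no replicate block). The script was checked on simulated data.

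A group mean within 1 log2 unit of the lowest value of a table was treated as near the floor, and its fold given as a bound. On the 430 2.0 arrays 36.7% of values lay within 0.01 of that lowest value. Titles share replicate numbers, but the labels do not say what they mark, and the numbers were not taken as pairs.

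Named genes are all members, with every probe set. From each list of related genes, up to 2 called genes per direction and comparison are named, those with the largest change and no overlap of arrays. For each member called at 2 h and 6 h, the 2 genes with the most similar profile are named. Members and lists were chosen with earlier results of these data known. Alternatives were no filter, a 60% filter, quantile normalization, median centring, a variance trend, the mean over or each of a gene's probe sets, fits of 2 groups alone, the replicate block and each array left out. Protein sequences were not used here.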

Additional observations from a re-analysis of the deposited data

Results flagged for a closer look

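Dok3 differed between the Ikaros-ERt2 time points: all 3 arrays at 2 h were below the vector arrays and all 3 at 6 h above them. Neither difference from vector passed the limma test (adjusted p = 0.0770 at 2 h and 0.0986 at 6 h). The test of the difference itself, 6 h over 2 h, gave a log2 change of 0.56 (limma, adjusted p = 0.0168; 6 h arrays higher in 3 of 3). That call was lost in 3 of 18 alternatives (adjusted p up to 0.112).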

How the results depend on the processing

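Counts are of members called, then of all genes called by limma, and the cause of the shifts was not tested. Without the filter the counts were 1 and 141 at 2 h (2 and 223 before), 0 and 185 at 48 h (2 and 1621), and 59 genes for 6 h over 2 h (108), which median centring put at 61. When only the groups compared were fitted, 6 h over 2 h gave 0 members and 0 genes (3 and 1301 at an unadjusted p below 0.05). With the replicate block, 48 h gave 0 members and 0 genes (4 and 4493 unadjusted; adjusted p = 0.0554 for both Fcgr2b and Dok3), and the other comparisons gave 263 genes at 2 h, 673 at 6 h and 125 for 6 h over 2 h, with 2, 4 and 1 members. Deviations from group means of same-numbered arrays correlated at 0.57 at 48 h (2 pairs, too few to settle a pairing). With 2 arrays a group, both pairs there give the same value by construction. Over the 9 pairs of the second experiment the correlations lay between -0.26 and 0.24, and 5 of 9 arrays were closest to their own number. Leaving out 1 array gave 1 to 3 members and 82 to 269 genes at 2 h, 2 to 4 and 335 to 711 at 6 h, 0 and 0 at 48 h (2 to 5 and 2176 to 3674 unadjusted), and 0 to 2 and 9 to 149 for 6 h over 2 h.

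Of the members' log2 changes under the alternatives, 486 kept their direction and side of the threshold, 30 lost it, 7 gained it and 15, none called, changed sign. Cd72 at 2 h became 0.024 after median centring and ranged from -0.16 to 0.16 when 1 array was left out, being above 0 without Ikaros-ERt2 2 h replicate 3 or vector replicate 1 (0.081). At 48 h, leaving out 1 array, Csk ranged from -0.17 to 0.46 (also -0.094 without 159A replicate 2), Inpp5d from -0.79 to 0.28 (also 0.0087 without 159A replicate 1) and Ptpn6 from -0.12 to 0.0012. For 6 h over 2 h, Inpp5d became -0.0064 after median centring and ranged from -0.018 to 0.059 when 1 array was left out (also -0.010 and -0.0099). There Cd72 became -0.044 and Ptpn22 0.041 without 2 h replicate 3, and Ptpn22 ranged from -0.14 to 0.089. The 2 arrays a group at 48 h limit what that comparison can call, and values at the 430 2.0 floor have no order.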

Other observations

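Genes of the activating side of B cell receptor signalling were counted in the same way. Of 22 tested, limma called 1 at 2 h, where 1.86% of all genes were called. Cd81, a tetraspanin gene, rose by 0.41 (adjusted p = 0.0365). At 6 h 1 was higher and 3 lower, where 5.78% of all genes were called. Malt1, a protease of the NF-kB pathway, rose by 0.39 (adjusted p = 0.0474), and the adaptor genes Blnk and Pik3ap1 fell by 0.94 (adjusted p = 0.00373) and 0.90 (adjusted p = 0.00532). The third that was lower, named after its value was seen, was Plcg2. At 48 h 3 were higher and 1 lower, where 14.8% of all genes were called. Cd79b, a signalling chain of the antigen receptor, rose by 2.12 (adjusted p = 0.0393) and the kinase gene Syk by 1.96 (adjusted p = 0.0327), Prkcb, named after its value was seen, was also higher, and Cd81 fell by 1.63 (adjusted p = 0.0487). Cd81 thus lay on opposite sides of 0 at 2 h and at 48 h, in comparisons that differ in array type, construct and control; that difference was not tested.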
